A study of Mus musculus with 18 samples.

Results

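Ribosome biogenesis factors are the proteins that make, cut, modify and assemble ribosomal RNA in the nucleolus, and Myc is the transcription factor best known for driving their genes. They were taken here by gene symbol. Symbols that begin with Nop, Nol, Utp or Rrp and go on with a number were included, and the RNA polymerase I subunits Polr1a to Polr1h. Also included were Imp3, Imp4, Bop1, Pes1, Wdr12, Fbl, Ncl, Npm1, Dkc1, Nhp2, Gar1, Tsr1 to Tsr3, Ltv1, Mybbp1a, Ddx21, Rrs1, Nolc1 and Myc. The rule itself reads no measured values, but it was chosen with earlier results of these data known. The rule found 57 of the 14695 genes in the deposited table, namely Myc and 56 factors. By role these were 8 subunits of RNA polymerase I, 4 proteins of the H/ACA guide particles, 3 of the C/D guide particles, 19 of the small-subunit processome, 4 late small-subunit factors, 13 large-subunit factors and 5 abundant nucleolar proteins. One further row, Tsr3, has a blank symbol in the table and was recognised only by its identifier. It is not counted among the 57, and with halofuginone it measured -0.30 ± 0.12 in Rosa26 (log2 fold change ± standard error, adjusted p = 0.0583). In ATF4 KO it measured -0.09 ± 0.13 (adjusted p = 0.586). In CEBPG KO it was just past the threshold of 0.05, at -0.31 ± 0.13 (adjusted p = 0.04999).

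The study sequenced polyA RNA in 18 libraries, 3 in each of 6 groups, made from mouse CD8+ T cells (primary cells of spleen and lymph node). Cells were targeted with CRISPR/Cas9 at Rosa26 (a locus widely used as a neutral control), at Atf4 (groups named ATF4 KO) or at Cebpg (CEBPG KO), so every group, the controls included, had been through CRISPR/Cas9. Each genotype was cultured for 24 h with halofuginone or without it, and the groups without it are called untreated here. Halofuginone inhibits the enzyme that loads proline onto its tRNA, and ATF4 and C/EBP-gamma are partner transcription factors of the response to amino acid shortage. The labels give no age of the mice, no dose and no share of edited cells. They are also silent on whether replicates were separate animals or cultures, and the p-values therefore speak only of spread among these samples, which may be technical.

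RNA polymerase I transcribes the long precursor of ribosomal RNA. Small nucleolar particles of the H/ACA and C/D kinds then modify it, the small-subunit processome and the large-subunit factors fold and cut it, and late factors finish each subunit for export. Activated CD8+ T cells enlarge their nucleoli and make ribosomes quickly as they grow, and Myc, paired with Max, binds the E-box sequence CACGTG in the promoters of many of these genes.

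Promoters are shown first because that sequence can be looked for in them. RefSeq promoter windows of 300 bases (mouse build GRCm38.p6) were matched by symbol for 43 of the 57 genes, and Myc was not among them. CACGTG, searched on both strands, stood in the windows of 12 of these 43 genes, or 27.9%, against 11.7% of the 9635 genes of the table that had a window and 7.15% of all 32851 windows. The holders were Utp20, Utp25, Nol11, Ltv1, Pes1, Tsr2, Imp4, Nop2, Tsr1, Mybbp1a, Utp4 and Utp18. The core of the composite element for C/EBP and ATF proteins, TGATGNAA, stood in 2 of the 43 (4.65%), Nol12 and Nop14, against 2.69% of the table's genes. A match describes the letters and does not show that a factor binds there. The windows below belong to the 5 holders with the highest mean CPM, and capitals mark CACGTG.
Mybbp1a, plus strand, chr11:72441077-72441376: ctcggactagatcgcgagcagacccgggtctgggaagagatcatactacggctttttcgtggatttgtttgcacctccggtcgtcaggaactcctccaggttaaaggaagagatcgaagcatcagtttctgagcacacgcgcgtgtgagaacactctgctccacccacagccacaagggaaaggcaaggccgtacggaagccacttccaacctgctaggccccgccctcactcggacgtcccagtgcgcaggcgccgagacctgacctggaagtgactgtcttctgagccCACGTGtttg
Nop2, plus strand, chr6:125131633-125131932: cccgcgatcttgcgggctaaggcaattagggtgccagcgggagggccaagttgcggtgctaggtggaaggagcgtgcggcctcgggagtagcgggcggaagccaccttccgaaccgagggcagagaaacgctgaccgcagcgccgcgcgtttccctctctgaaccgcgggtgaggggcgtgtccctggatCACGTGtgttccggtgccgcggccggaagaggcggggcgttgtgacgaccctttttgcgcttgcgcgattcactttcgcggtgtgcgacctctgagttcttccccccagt
Tsr1, plus strand, chr11:74897830-74898129: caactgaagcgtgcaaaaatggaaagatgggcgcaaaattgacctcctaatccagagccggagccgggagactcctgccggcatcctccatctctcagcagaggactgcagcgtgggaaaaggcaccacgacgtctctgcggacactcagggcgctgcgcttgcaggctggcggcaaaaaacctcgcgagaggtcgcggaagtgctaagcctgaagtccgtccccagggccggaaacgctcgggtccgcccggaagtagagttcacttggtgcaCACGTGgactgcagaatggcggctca
Pes1, plus strand, chr11:3963725-3964024: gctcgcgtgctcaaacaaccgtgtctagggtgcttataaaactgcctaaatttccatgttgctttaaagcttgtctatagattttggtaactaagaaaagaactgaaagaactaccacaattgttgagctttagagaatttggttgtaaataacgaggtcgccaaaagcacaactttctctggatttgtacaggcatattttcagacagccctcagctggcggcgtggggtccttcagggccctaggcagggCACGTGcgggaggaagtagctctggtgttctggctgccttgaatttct
Utp20, minus strand, chr10:88826765-88827064: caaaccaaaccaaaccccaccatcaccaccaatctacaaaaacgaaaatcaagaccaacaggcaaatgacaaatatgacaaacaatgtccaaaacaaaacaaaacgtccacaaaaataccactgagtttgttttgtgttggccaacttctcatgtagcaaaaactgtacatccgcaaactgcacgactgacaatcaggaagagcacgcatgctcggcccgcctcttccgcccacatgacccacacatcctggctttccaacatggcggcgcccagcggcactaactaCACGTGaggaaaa
Counted with the annotated start site as base 1, the motif began at base 41 in Mybbp1a, -60 in Nop2, 25 in Tsr1, 3 in Pes1 and 38 in Utp20.

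Depth ran from 14.2 to 20.3 M counts per library, and the lowest count of any of the 57 genes in a library was 269. CD8 T cell markers summed to 3139 to 4319 CPM (counts scaled to a common library size by the TMM method) with 8 of 8 measured. The other lists were low: CD4 T cell markers 8.19 to 36.3 CPM (2 of 3 measured), B cell 3.18 to 7.65 (2 of 5), myeloid 2.24 to 6.87 (1 of 5) and erythroid 2.08 to 12.2 (1 of 4), with 0 of 3 NK markers measured. Some of these moved with the drug. The CD4 markers measured, Zbtb7b and Foxp3, summed to at most 9.09 CPM in untreated Rosa26 and at least 33.6 CPM in treated Rosa26. They were higher without overlap in the treated knockouts too, up to 20.4 CPM in ATF4 KO (at most 13.9 untreated) and 17.4 CPM in CEBPG KO (at most 12.4 untreated). The CD8 markers were lower without overlap in treated ATF4 KO (4125 to 4299 CPM untreated, 3139 to 3940 treated) and treated CEBPG KO (4138 to 4187 and 3321 to 3581), and overlapped in Rosa26 (4110 to 4186 and 3650 to 4319). The 1 erythroid marker, Itga2b, and the 1 myeloid marker, Cd68, were higher without overlap in treated cells of each genotype, at no more than 12.2 and 6.87 CPM, and the B cell markers were lower without overlap in both treated knockouts. The part of these markers in the results was not tested. Atf4 mRNA ran from 267 to 378 CPM in the ATF4 KO libraries and from 256 to 428 CPM in the Rosa26 libraries. Cebpg mRNA ran from 93.4 to 105 CPM in CEBPG KO with halofuginone and from 167 to 183 CPM in Rosa26 with it, but from 53.9 to 58.5 and from 52.8 to 55.1 CPM untreated. A cut gene can still be transcribed, so these levels do not check the knockouts, and the genotypes are those of the labels. In each halofuginone group 1 library stood apart by its low level of the nuclear RNA Malat1: replicate 2 of Rosa26 (672 against 2074 and 2607 CPM), replicate 3 of ATF4 KO (1158 against 2404 and 3415) and replicate 3 of CEBPG KO (1960 against 3237 and 3580). Those 3 libraries also had the highest summed level of the 56 factors in their groups, and the part of this in the results was not tested. The counts of called genes in the drug comparisons, the treated knockouts and the interactions are given without those 3 libraries too. Each halofuginone group then holds 2 libraries, and those left out were picked by a level seen in these data. More calls or smaller p-values in that fit are therefore not stronger evidence. Malat1 also differed between the untreated groups. Untreated Rosa26 held 1023, 858 and 1168 CPM. Untreated ATF4 KO held 2026, 2106 and 2606 CPM, and untreated CEBPG KO 2104, 2364 and 2048 CPM. The untreated Rosa26 libraries had the highest factor sums of all and stay in the fits without the 3 treated libraries. The part of this in the results was not tested either.

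Most ribosome biogenesis factors were lower with halofuginone in Rosa26 cells, and no change of Myc mRNA passed the test. The fall was of moderate size and spread over all roles, and Nop53 alone rose. Summed over the 56 factors, the untreated Rosa26 libraries held 12601, 13044 and 12620 CPM and the halofuginone libraries 9413, 10736 and 9145 CPM. The groups did not overlap, and the treated mean was 76.6% of the untreated mean (72.7% without replicate 2, low in Malat1). By edgeR's quasi-likelihood test with Benjamini-Hochberg adjustment over all genes, 45 of the 57 genes fell and 1 rose at an adjusted p under 0.05. Over all genes of the table, 24.1% fell and 23.6% rose. The median log2 fold change was -0.41 for the 57 genes, a change of -24.9%, against 0.022 for all genes. In 44 of the 57 every treated library lay below every untreated one, which held for 27.9% of all genes. Without the 3 libraries low in Malat1, 47 fell (27.5% of all genes), the 45 among them, with a median of -0.44. In bulk RNA, fewer cells of a kind and less of an RNA per cell cannot be told apart.

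**Figure D1:**
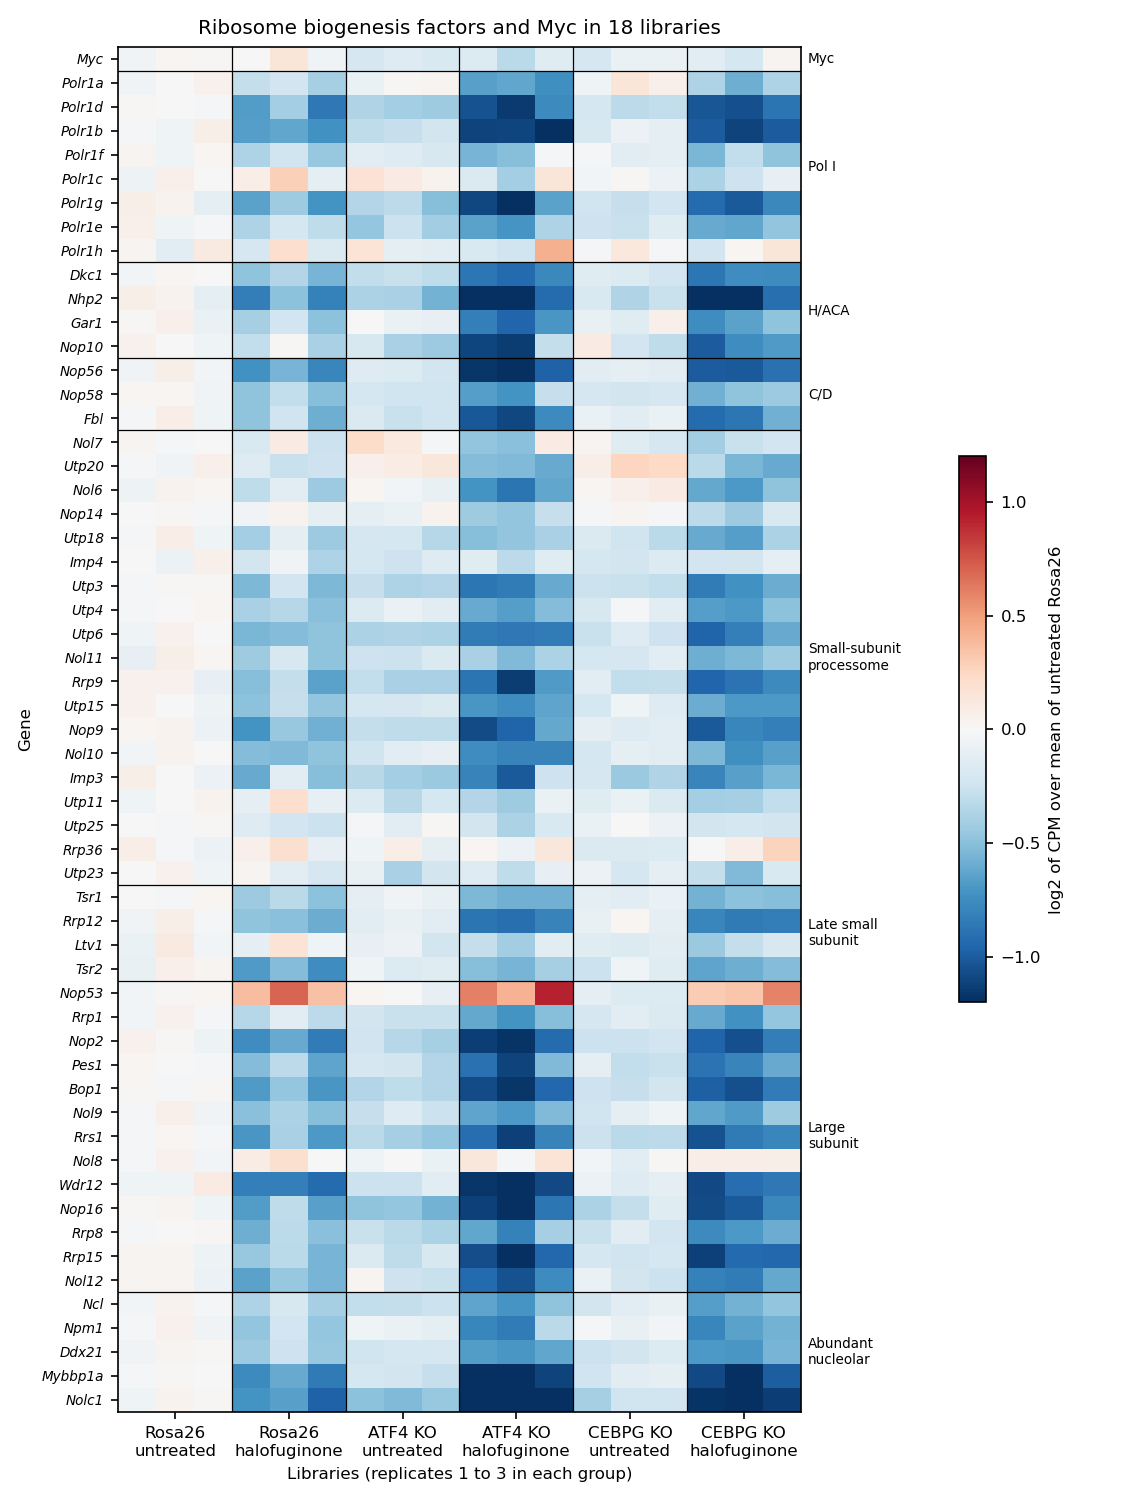
Each row is 1 of the 57 genes, grouped by role, and each column 1 of the 18 libraries, with 3 replicates per group. Colour gives the log2 ratio of CPM to the mean of the 3 untreated Rosa26 libraries (colours saturate at the ends of the bar); most rows turn blue in the 3 halofuginone blocks, while Nop53 turns red and Myc stays pale.

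Of the 8 RNA polymerase I subunits, 6 fell with halofuginone in Rosa26. Polr1a, the largest catalytic subunit, measured 147, 152 and 158 CPM untreated and 125, 130 and 116 CPM treated. Its log2 fold change was -0.30 ± 0.07 (adjusted p = 0.00103). Polr1d, a subunit shared with RNA polymerase III, went from 153, 152 and 148 CPM to 94.6, 114 and 83.1 CPM. All treated libraries of both genes were below the untreated ones, and Polr1d fell by 0.63 on the log2 scale (SE 0.10, adjusted p = 1.74e-05). The other 2 subunits, Polr1c (0.09, adjusted p = 0.540) and Polr1h (-0.05, adjusted p = 0.804), did not pass the test.

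Particles that modify ribosomal RNA were lower as well: 3 of the 4 H/ACA proteins and all 3 C/D proteins fell. Dkc1, the pseudouridine synthase of the H/ACA particles, went from 288, 300 and 296 CPM to 210, 231 and 200 CPM, a fall of 0.46 (SE 0.06, adjusted p = 1.62e-06). Nhp2, a core protein of the same particles, went from 193, 190 and 171 CPM to 104, 131 and 105 CPM, a fall of 0.71 (SE 0.15, adjusted p = 0.00116). The treated and untreated libraries of both genes were fully separated. Among C/D proteins, Nop56 went from 463, 500 and 465 CPM to 287, 322 and 277 CPM, a log2 change of -0.69 ± 0.07 (adjusted p = 1.75e-07). Its partner Nop58 went from 415, 413 and 396 CPM to 292, 333 and 286 CPM, a change of -0.43 ± 0.09 (adjusted p = 0.000364). Neither overlapped between the groups. Nop10 of the H/ACA particles measured -0.21 ± 0.18 (adjusted p = 0.370), with 1 treated library inside the untreated range.

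Of the 19 factors of the small-subunit processome, 14 fell. Utp20, a large scaffold protein, went from 147, 145 and 156 CPM to 134, 124 and 126 CPM, a log2 change of -0.22 ± 0.07 (adjusted p = 0.0101). That call was lost with upper-quartile scaling (-0.15, adjusted p = 0.131), with a filter at 5 CPM (-0.17, adjusted p = 0.0601) and without untreated Rosa26 replicate 3 (-0.19, adjusted p = 0.0503). Nol7 measured 171, 164 and 166 CPM untreated and 147, 178 and 139 CPM treated, overlapping, with -0.11 ± 0.13 (adjusted p = 0.534). Of the 4 late small-subunit factors 3 fell. Tsr1, a GTPase-like protein of the late particle, went from 170, 169 and 173 CPM to 127, 136 and 122 CPM, and Rrp12, needed for export of the particle, from 108, 116 and 109 CPM to 79.1, 78.1 and 73.2 CPM. Both were separated between the groups, at -0.41 ± 0.05 (adjusted p = 9.83e-07) and -0.53 ± 0.06 (adjusted p = 1.49e-07). The fourth, Ltv1, was level at 75.0 ± 5.14 and 75.0 ± 7.64 CPM (SD, n = 3 each).

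Of the 13 large-subunit factors 11 fell and 1 rose. Wdr12, which works with Pes1 and Bop1 in 1 complex, showed the largest fall of the 57 genes in Rosa26: it went from 85.9, 85.8 and 95.1 CPM to 50.4, 50.4 and 46.9 CPM (-0.85 ± 0.07, adjusted p = 3.31e-09). Its partners Bop1 (-0.61, adjusted p = 3.74e-07) and Pes1 (-0.48, adjusted p = 0.00176) fell too. Rrp1 went from 258, 274 and 262 CPM to 209, 242 and 212 CPM (-0.26 ± 0.07, adjusted p = 0.00441), again with no overlap. Nop53, which acts late in the large subunit by bringing in the RNA exosome, moved the other way. It measured 299, 309 and 310 CPM untreated and 396, 495 and 390 CPM treated, so each treated library was above each untreated one, at 0.48 ± 0.11 (adjusted p = 0.00113). Nol8 (0.09, adjusted p = 0.232) did not pass the test.

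All 5 abundant nucleolar proteins fell. Ncl (nucleolin) went from 2509, 2652 and 2554 CPM to 1990, 2250 and 1956 CPM, a log2 change of -0.32 ± 0.08 (adjusted p = 0.00276). Npm1 (nucleophosmin) went from 1792, 1881 and 1763 CPM to 1305, 1541 and 1310 CPM, a change of -0.39 ± 0.11 (adjusted p = 0.00521). The larger falls were in Nolc1, a chaperone of nucleolar particles, and Mybbp1a, a nucleolar protein first found as a partner of Myb. Nolc1 went from 386, 410 and 403 CPM to 242, 254 and 203 CPM (-0.78 ± 0.07, adjusted p = 2.99e-08), and Mybbp1a from 668, 683 and 673 CPM to 398, 443 and 375 CPM (-0.74 ± 0.08, adjusted p = 1.39e-07). In none of these 4 did treated and untreated libraries overlap.

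Myc mRNA was 287, 300 and 297 CPM in untreated Rosa26 cells and 294, 326 and 284 CPM with halofuginone, and the groups overlapped. Its log2 fold change was 0.034, with a 95% interval from -0.11 to 0.18 (adjusted p = 0.717). The interval covers changes of either sign up to that size, so a small change of Myc was not detectable with 3 libraries a group. In ATF4 KO it measured 256, 264 and 259 CPM untreated and 262, 236 and 267 CPM treated (-0.028, interval -0.17 to 0.12, adjusted p = 0.772). In CEBPG KO it measured 256, 279 and 279 CPM untreated and 269, 255 and 301 CPM treated (0.020, interval -0.12 to 0.16, adjusted p = 0.839). The sign turned in ATF4 KO with RLE scaling (0.016) and in CEBPG KO without the libraries low in Malat1 (-0.012). Upper-quartile scaling gave a rise in CEBPG KO at the edge of the threshold (0.13, adjusted p = 0.0488).

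**Figure D2:**
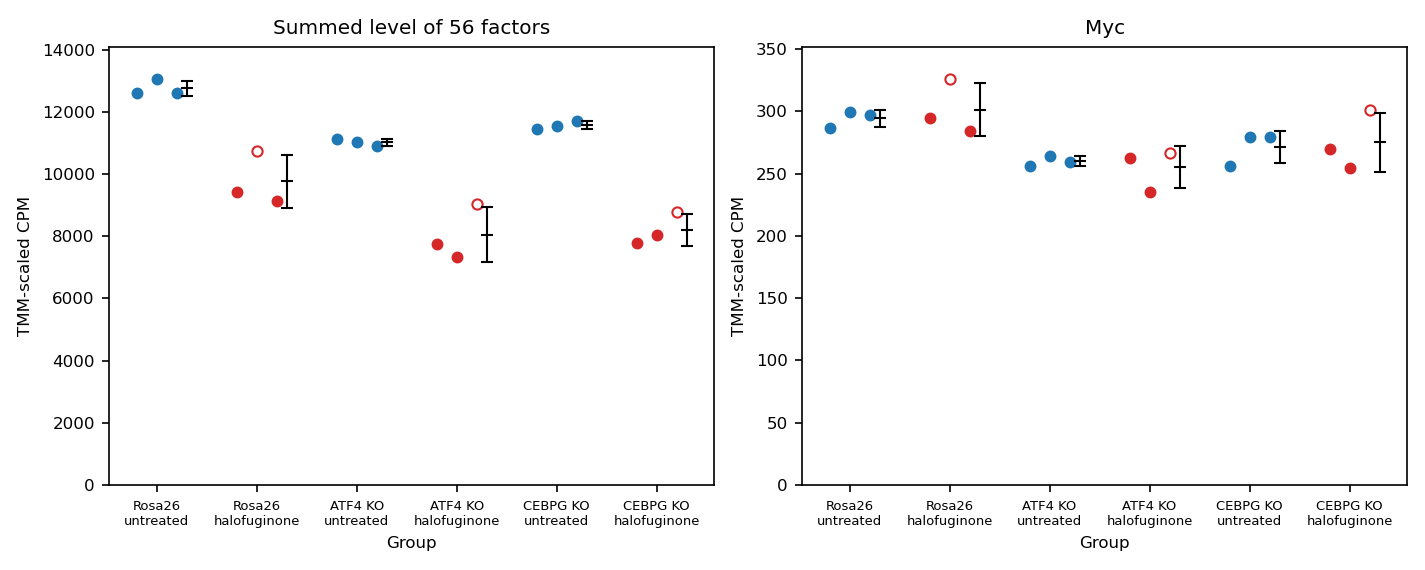
The left panel gives the summed CPM of the 56 factors and the right panel the CPM of Myc, with 1 point per library, blue for untreated and red for halofuginone, open circles for the 3 libraries low in Malat1, and the mean with SD as a black bar. The sum falls from 12755 ± 251 to 9764 ± 852 CPM in Rosa26, while the Myc points of treated and untreated cells overlap in each genotype.

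The same drug comparison was then made within each knockout, and most of the factors fell there as well. In ATF4 KO 43 of the 57 genes fell and 1 rose, against 26.5% and 23.1% of all genes, with a median of -0.47 against -0.042 for all genes. In CEBPG KO 46 fell and 2 rose, against 28.0% and 23.1% of all genes, with a median of -0.49 against -0.029. Treated libraries lay below untreated ones without overlap for 42 of 57 genes in ATF4 KO and 50 of 57 in CEBPG KO, against 28.9% and 32.7% of all genes. Without the libraries low in Malat1 the counts of fallen genes were 49 and 49 (29.8% and 29.5% of all genes), with medians of -0.49 and -0.48. The summed level went from 11025 ± 108 to 8053 ± 892 CPM in ATF4 KO and from 11570 ± 134 to 8202 ± 503 CPM in CEBPG KO (SD, n = 3 each).

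Across the 3 genotypes, which share no library, 41 genes fell each time, or 91.1%, 95.3% and 89.1% of the genes that fell in Rosa26, ATF4 KO and CEBPG KO. Over all genes, 18.8% fell in all 3. At least 1 genotype gave a fall for 49 of the 57. Nop53 rose in all 3, at 0.69 ± 0.11 in ATF4 KO (adjusted p = 3.02e-05) and 0.56 ± 0.11 in CEBPG KO (adjusted p = 0.000237). In ATF4 KO it went from 311, 305 and 287 CPM to 465, 410 and 578 CPM, and in CEBPG KO from 283, 273 and 274 CPM to 377, 386 and 463 CPM, with no overlap in either. In each of the 3 genotypes the highest of the treated values came from the library low in Malat1. Without those libraries Nop53 rose by 0.40 in Rosa26 (adjusted p = 8.17e-10), 0.58 in ATF4 KO (adjusted p = 1.58e-14) and 0.50 in CEBPG KO (adjusted p = 1.34e-12). These p-values rest on 2 treated libraries per group, after the 1 that stood apart had been seen and left out. They are therefore not stronger evidence than those of the full fit. Myc, Polr1c, Polr1h, Utp23, Ltv1 and Nol8 passed the test in none of the 3.

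**Figure D3:**
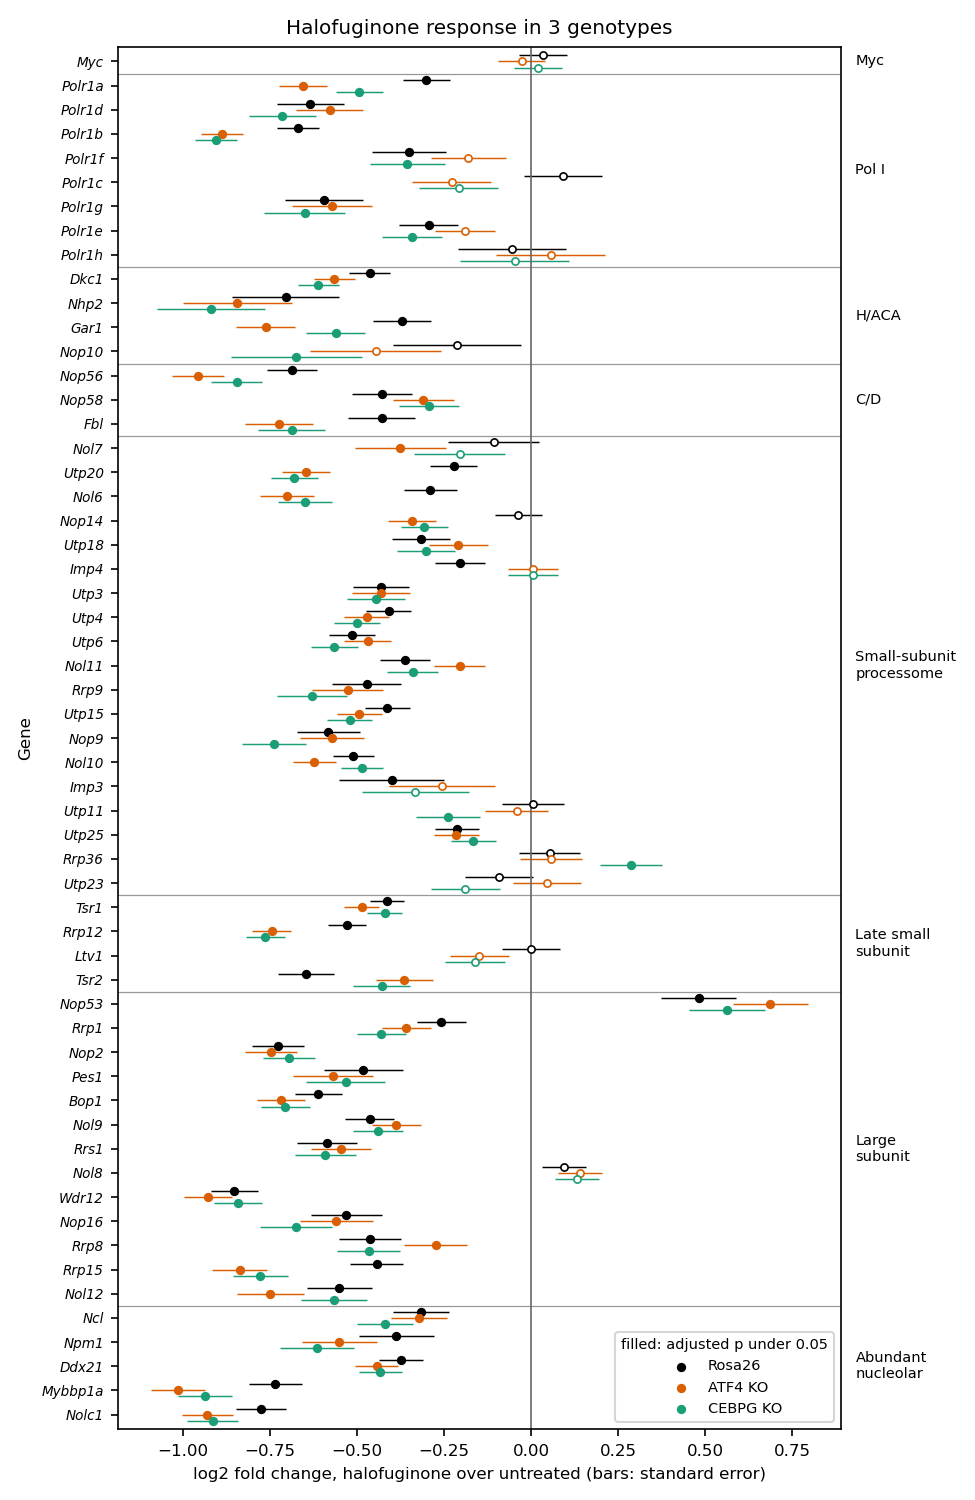
Each gene has 3 points, its log2 fold change of halofuginone over untreated cells in Rosa26 (black), ATF4 KO (orange) and CEBPG KO (green), with bars of 1 standard error and filled points at an adjusted p under 0.05. Most points lie between 0 and the largest fall of -1.01 (Mybbp1a in ATF4 KO), and the 3 points of Nop53 lie to the right of 0.

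Mybbp1a and Nolc1 were among the 3 largest falls in each genotype. Mybbp1a went from 584, 581 and 556 CPM to 280, 260 and 312 CPM in ATF4 KO (-1.01 ± 0.08, adjusted p = 1.29e-09). It went from 572, 616 and 620 CPM to 318, 287 and 340 CPM in CEBPG KO (-0.94 ± 0.08, adjusted p = 3.56e-09). Nolc1 went from 284, 277 and 292 CPM to 147, 145 and 155 CPM in ATF4 KO (-0.93) and from 304, 339 and 337 CPM to 176, 161 and 183 CPM in CEBPG KO (-0.91). In both genes and both knockouts every treated library was far below the untreated range. Nop56 in ATF4 KO (-0.96, adjusted p = 1.44e-09) and Nhp2 in CEBPG KO (-0.92, adjusted p = 0.000110) were the others of the largest falls. Nhp2 ended at 68.1, 76.6 and 98.3 CPM in that group, from 162, 143 and 154 CPM.

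By role, RNA polymerase I subunits fell in 4 of 8 cases in ATF4 KO and 6 of 8 in CEBPG KO, H/ACA proteins in 3 and 4 of 4, and C/D proteins in 3 of 3 both times. Processome factors fell in 14 of 19 both times, late small-subunit factors in 3 of 4, large-subunit factors in 11 of 13 and abundant nucleolar proteins in 5 of 5. Rrp36, a processome factor of the early cuts, rose in CEBPG KO from 28.5, 28.5 and 28.8 CPM to 32.1, 34.0 and 38.7 CPM (0.29, adjusted p = 0.0105). That call was lost without treated CEBPG KO replicate 3, the library low in Malat1 (0.21, adjusted p = 0.0643). A few genes passed in some genotypes and not in others: Imp3 and Imp4 fell in Rosa26 of the 3, Nop14 in both knockouts, Nol7 in ATF4 KO, Nop10 and Utp11 in CEBPG KO, and Polr1e and Polr1f in Rosa26 and CEBPG KO. Such differences in calls are no test of a difference in response, for which interactions were fitted. The call of Nol7 in ATF4 KO (-0.38, adjusted p = 0.0243) was lost without untreated replicate 1 or 2 or treated replicate 1 or 2 (adjusted p from 0.0541 to 0.118).

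Other genes of ribosome assembly, taken from lists of known factors outside the rule, were lower with halofuginone in the same direction. Of 79 such genes measured, 58 fell and 2 rose in Rosa26, 49 fell and 2 rose in ATF4 KO, and 55 fell and 2 rose in CEBPG KO. Over all genes 24.1%, 26.5% and 28.0% fell and 23.6%, 23.1% and 23.1% rose. Small-subunit factors fell in 26 of 33 cases in Rosa26, led by Tbl3 (-0.81) and Noc4l (-0.67). Large-subunit factors fell in 19 of 28 and rose in 2, with Gnl3 (nucleostemin) at -0.55 and the helicase Ddx56 at -0.67, and exosome subunits and cofactors fell in 8 of 11, with Exosc2 at -0.59. Factors that start transcription by RNA polymerase I, such as Rrn3 (-0.28) and Ttf1 (-0.26), fell in 5 of 7 cases in Rosa26. The knockouts gave 2 of 7 (CEBPG KO) and 0 of 7 (ATF4 KO), but by the interaction test 0 of the 7 differed from Rosa26 in either knockout, with 2 in ATF4 KO and 0 in CEBPG KO at an unadjusted p under 0.05.

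Of 12 measured genes of the Myc network, 5 rose and 3 fell in Rosa26, where 23.6% and 24.1% of all genes did, so the falls were near the share of all genes. Mxd1, a Max partner that represses Myc targets, rose from 12.2 ± 1.12 to 67.8 ± 6.07 CPM (SD, n = 3 each), a log2 fold change of 2.47. Of the other Max partners of that kind, Mxd4 (1.53), Mxi1 (0.73), Mnt (0.72) and Mga (0.55) rose and Mxd3 fell. Mxd4 went from 19.1 ± 0.936 to 55.3 ± 1.35 CPM. The Myc paralog Mycn fell by 1.64, from 17.5 ± 2.09 to 5.61 ± 0.492 CPM. Mxd3 fell by 1.44, from 60.0 ± 2.11 to 22.2 ± 3.08 CPM, and Mlx by 0.27. Max, the shared partner, measured 131 ± 4.25 and 127 ± 6.81 CPM (-0.05, adjusted p = 0.567). Mxd1 rose by 2.57 in ATF4 KO and 2.62 in CEBPG KO, and Mycn changed by -1.82 and -1.77.

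Without halofuginone, many of the factors were lower in ATF4 KO than in Rosa26. Against untreated Rosa26, 27 of the 57 genes were lower in ATF4 KO and 0 higher, where 14.3% and 11.7% of all genes were. The median was -0.23 for the 57 genes and 0.018 for all genes. Levels did not overlap, on the lower side, in 42 of the 57, against 25.6% of all genes. By role the 27 were 4 of 8 polymerase subunits, 2 of 4 H/ACA proteins, 8 of 19 processome factors, 9 of 13 large-subunit factors and 4 of 5 abundant nucleolar proteins, with 0 of 3 C/D proteins and 0 of 4 late small-subunit factors. The count was 15 without untreated Rosa26 replicate 2, a fit for which shares of all genes were not counted, and 20 with upper-quartile scaling. It was 37 with RLE scaling, 36 with DESeq2, 32 with a filter at 5 CPM and 38 when only the 2 untreated groups were fitted. Calls over all genes, in either direction, numbered 3827 in the main fit (44.9% of them higher) and 4043 with upper-quartile scaling (57.6% higher). They numbered 4182 (RLE, 36.6% higher), 4296 (DESeq2, 36.7%), 4058 of 10216 genes (5 CPM filter, 48.2%) and 6086 (only the 2 groups, 47.0%).

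Nop16, a large-subunit factor, was the lowest of these by fold change: 84.3, 85.3 and 80.6 CPM in Rosa26 and 59.5, 60.5 and 56.2 CPM in ATF4 KO (-0.51 ± 0.10, adjusted p = 0.00112). Nolc1 was 386, 410 and 403 CPM against 284, 277 and 292 CPM (-0.49 ± 0.07, adjusted p = 5.99e-05). Each ATF4 KO library of both genes was below each Rosa26 library. Nhp2 (-0.45, adjusted p = 0.0410) passed too, but not when any 1 of the 6 libraries was left out (adjusted p from 0.0502 to 0.136). Of the members named for their high CPM within a role, Polr1d (-0.40), Dkc1 (-0.29), Ncl (-0.28) and Rrp1 (-0.25) were lower past the threshold, the calls of Ncl and Rrp1 not without untreated Rosa26 replicate 2 (adjusted p = 0.0582 and 0.0554). Npm1 (-0.08, adjusted p = 0.607), Nop58 (-0.23, adjusted p = 0.0554), Nop56 (-0.18, adjusted p = 0.0713), Tsr1 (-0.08), Rrp12 (-0.11), Polr1a (-0.01), Utp20 (0.09), Nol7 (0.11) and Nop53 (-0.02) did not pass. Myc was 0.18 lower on the log2 scale, with no overlap between its 3 ATF4 KO libraries and the 3 of Rosa26, at an adjusted p = 0.0586. It passed with RLE scaling (-0.21, adjusted p = 0.0130), DESeq2 (adjusted p = 0.00496), the 5 CPM filter (adjusted p = 0.0424), the compared groups alone (adjusted p = 0.000231) and without the libraries low in Malat1 (adjusted p = 0.00171).

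In untreated CEBPG KO most of the 57 genes had a log2 fold change below 0, and few passed the test. The median was -0.15 against 0.010 for all genes, and 3 of the 57 genes were lower and 0 higher, against 2.29% and 2.71% of all genes. Lower levels without overlap were seen for 40 of the 57, against 20.6% of all genes. The 3 were Rrs1, which helps to place the 5S particle in the large subunit (137 ± 2.27 CPM in Rosa26 and 111 ± 2.77 in CEBPG KO, -0.30, adjusted p = 0.0488), Nolc1 (400 ± 12.4 and 327 ± 19.8 CPM, -0.29, adjusted p = 0.0254) and Bop1 (188 ± 2.49 and 158 ± 3.22 CPM, -0.25, adjusted p = 0.0400). The libraries of the 2 groups were separated for each. The count moved with the setting: it was 0 without any 1 of the 6 libraries, 17 with RLE scaling (7.72% of all genes lower), 25 with DESeq2 (12.9%), 35 when only the 2 untreated groups were fitted (15.5%) and 32 without the libraries low in Malat1 (14.2%). The median stayed at -0.15 in the last 2 settings. Shares of all genes were not counted for the fits with 1 library left out. All groups shared 1 estimate of spread, and replicates differed more in treated groups. Chi-square per degree of freedom between 2 replicates ran from 2.04 to 6.96 untreated and from 6.57 to 43.9 treated. The part of this in the counts was not tested. The counts of 27 in untreated ATF4 KO and 3 here are no test of 1 knockout against the other. Myc measured -0.12 (adjusted p = 0.299), and passed with the compared groups alone (-0.12, adjusted p = 0.0313) and without the libraries low in Malat1 (-0.12, adjusted p = 0.0407).

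**Figure D4:**
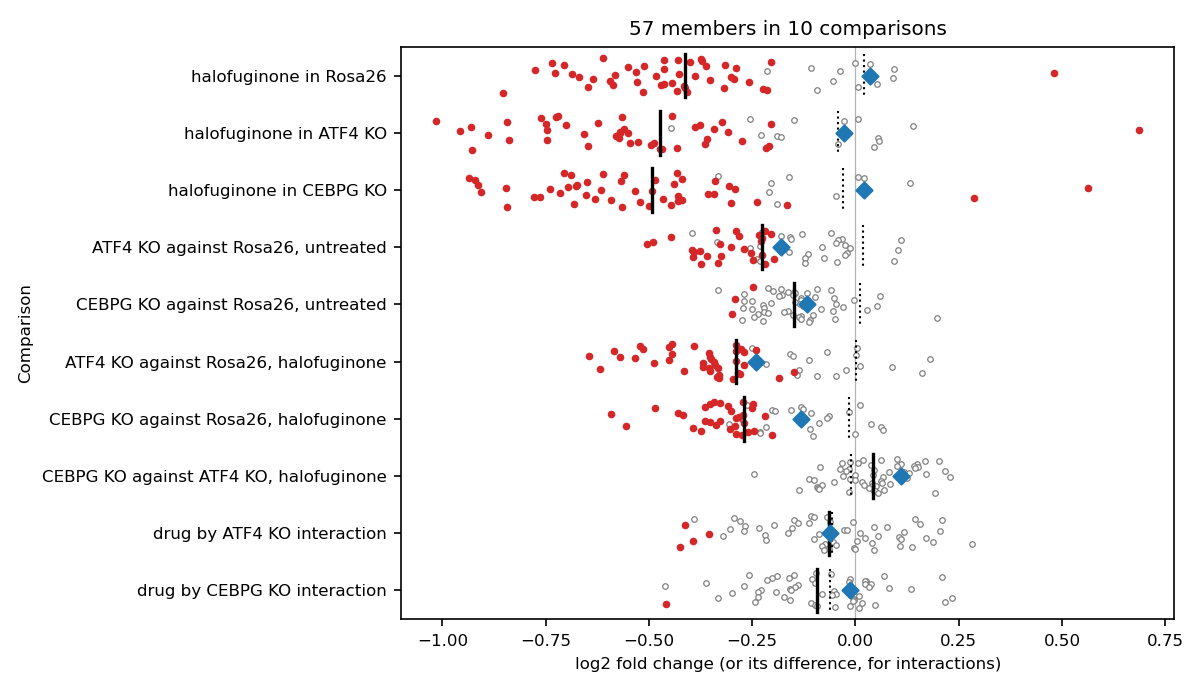
Each row is 1 of the 10 comparisons and each point 1 of the 57 genes by its log2 fold change, red where the adjusted p was under 0.05, with Myc as a blue diamond, the median of the 57 as a solid line and the median of all genes as a dotted line. The solid line lies left of the dotted one by the most in the 3 halofuginone comparisons, and the 2 lines nearly meet in the drug by ATF4 KO interaction (-0.064 and -0.057).

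With halofuginone in both genotypes, the knockouts held less of the factors than Rosa26 did. In ATF4 KO 39 of the 57 genes were lower and 0 higher, against 16.3% and 11.8% of all genes, with a median of -0.29 against 0.0011 for all genes. In CEBPG KO 32 were lower and 0 higher, against 13.1% and 5.74% of all genes, with a median of -0.27 against -0.016. Lower levels without overlap were counted for 33 and 31 of the 57, against 18.3% and 20.0% of all genes. Relative to untreated Rosa26, the summed level of the 56 factors was 63.1% in treated ATF4 KO and 64.3% in treated CEBPG KO, beside 76.6% in treated Rosa26. Without the libraries low in Malat1 these were 59.2%, 62.1% and 72.7%, and the counts of lower genes were 43 in ATF4 KO and 37 in CEBPG KO (19.8% and 15.5% of all genes), with medians of -0.31 and -0.25. The comparisons with halofuginone share their Rosa26 libraries, so their values are set side by side and not counted against each other. The counts fell to 20 and 13 when only the 2 compared groups were fitted (8.76% and 7.79% of all genes lower). The ATF4 KO count was 25 without treated ATF4 KO replicate 2, and the CEBPG KO count 17 without treated Rosa26 replicate 2 and 15 without treated CEBPG KO replicate 1. Shares of all genes were not counted for fits with 1 library left out, so these drops cannot be set against them.

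Nolc1 showed the largest difference between ATF4 KO and Rosa26 under the drug, at 147, 145 and 155 CPM against 242, 254 and 203 CPM (-0.65 ± 0.07, adjusted p = 1.57e-06). Rrp15, an early large-subunit factor, was at 27.7, 25.3 and 30.3 CPM in ATF4 KO against 42.2, 46.3 and 39.4 CPM (-0.62 ± 0.08, adjusted p = 6.37e-06). Both were separated between the groups. Nhp2 was next (-0.58, adjusted p = 0.00981), with a call lost without treated ATF4 KO replicate 2 (adjusted p = 0.0527). Myc was 0.24 lower (adjusted p = 0.0111), with no overlap between the groups, and was not past the threshold without treated ATF4 KO replicate 2 (-0.19, adjusted p = 0.0662) or with only the compared groups (-0.21, adjusted p = 0.0987).

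In CEBPG KO under the drug the lowest were Nop10 (-0.59, adjusted p = 0.0392), Rrp15 (-0.55 ± 0.08, adjusted p = 6.19e-05) and Nhp2 (-0.49, adjusted p = 0.0402). Rrp15 measured 26.7, 30.3 and 30.2 CPM there, below all treated Rosa26 libraries. Nop10 and Nhp2 lost their calls without treated Rosa26 replicate 2 (adjusted p = 0.146 and 0.150) and without treated CEBPG KO replicate 1 or 2 (adjusted p from 0.0614 to 0.174), and Nop10 also without treated Rosa26 replicate 1 (adjusted p = 0.0586). Myc measured -0.13 (adjusted p = 0.196), and passed without treated CEBPG KO replicate 3 (-0.20, adjusted p = 0.0401) and without the libraries low in Malat1 (-0.14, adjusted p = 0.0451). The 2 treated knockouts compared with each other gave 0 of the 57 genes by edgeR, against 0.463% of all genes lower and 0.538% higher. At an unadjusted p under 0.05 there were 7, where 12.4% of all genes were, and DESeq2 called 2 higher in CEBPG KO (2.04% of all genes). The median difference was 0.042, against -0.010 for all genes.

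Whether the drug response itself differed by genotype was tested as an interaction. Most of the 57 genes gave no call: 4 fell further in ATF4 KO than in Rosa26 and 0 less, where 4.01% and 2.41% of all genes did, so in this fit the 4 are no result about these genes as a set. The median interaction was -0.064 for the 57 and -0.057 for all genes. In CEBPG KO 1 gene fell further and 0 less, against 2.1% and 0.374% of all genes, with a median of -0.092 against -0.062. Without the libraries low in Malat1 the counts were 13 (9.68% of all genes) and 4 (5.43%). Myc gave -0.062 (adjusted p = 0.785) and -0.014 (adjusted p = 0.978).

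**Figure D5:**
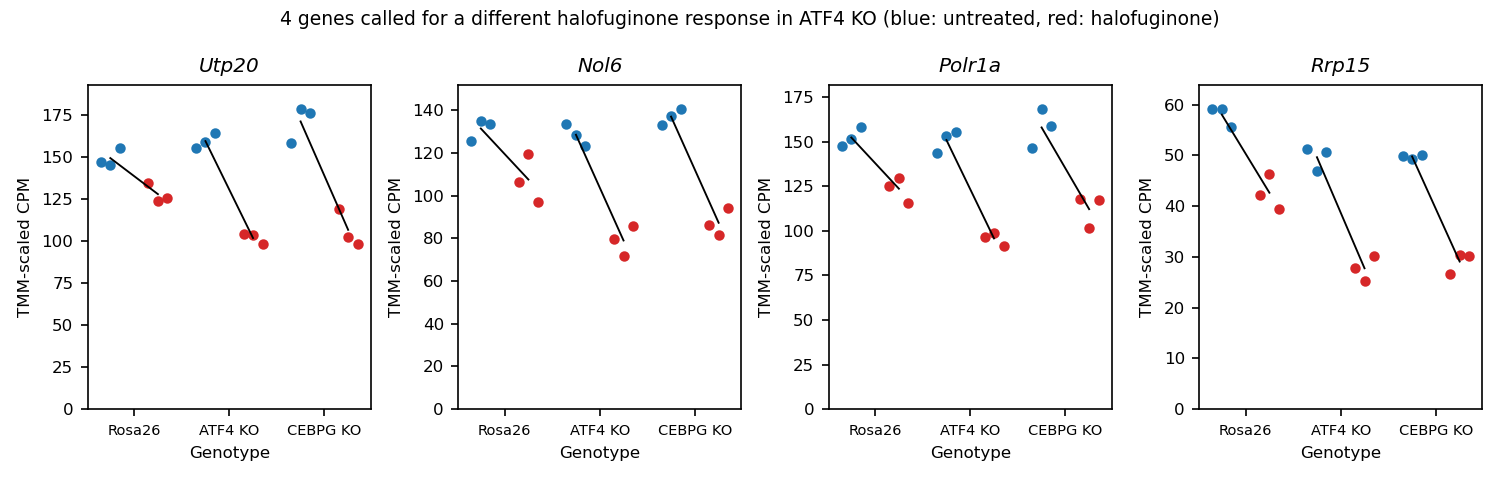
Points are CPM per library, blue untreated and red with halofuginone, for Utp20, Nol6, Polr1a and Rrp15 in the 3 genotypes, and lines join the group means. The lines drop more steeply in ATF4 KO than in Rosa26 for all 4 genes, as for Utp20 from 160 to 102 CPM against 150 to 128 CPM.

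Utp20 was called in both interactions. It went from 155, 159 and 164 CPM to 104, 103 and 98.2 CPM in ATF4 KO and from 158, 179 and 177 CPM to 119, 103 and 98.6 CPM in CEBPG KO. Its fall in Rosa26 was from 147, 145 and 156 CPM to 134, 124 and 126 CPM. The treated knockout libraries were all below the treated Rosa26 ones, while the untreated knockouts were level with Rosa26 or above it. The extra fall was 0.42 ± 0.10 on the log2 scale in ATF4 KO (adjusted p = 0.0103) and 0.46 ± 0.10 in CEBPG KO (adjusted p = 0.0119). The second was lost without treated CEBPG KO replicate 2 (adjusted p = 0.112) and with upper-quartile scaling (adjusted p = 0.0521).

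The other 3 genes of the ATF4 KO interaction were Nol6, an RNA-binding protein of the processome, Rrp15 and Polr1a. Nol6 went from 126, 135 and 134 CPM to 106, 120 and 96.9 CPM in Rosa26 and from 134, 129 and 124 CPM to 79.9, 71.7 and 85.6 CPM in ATF4 KO (interaction -0.41 ± 0.11, adjusted p = 0.0255). Polr1a went from 144, 154 and 156 CPM to 96.7, 98.9 and 91.8 CPM in ATF4 KO (interaction -0.36 ± 0.10, adjusted p = 0.0306). Rrp15 went from 59.2, 59.2 and 55.7 CPM to 42.2, 46.3 and 39.4 CPM in Rosa26 and from 51.3, 47.0 and 50.6 CPM to 27.7, 25.3 and 30.3 CPM in ATF4 KO (interaction -0.39 ± 0.11, adjusted p = 0.0357). For each the treated ATF4 KO libraries were the lower ones, with no overlap with treated Rosa26. These 3 calls are fragile. Leaving out 1 library at a time, the count of 4 ran from 1, without untreated Rosa26 replicate 1, to 9, without treated ATF4 KO replicate 3. It was 2 in 8 of the 12 cases, and shares of all genes were not counted for those fits. In CEBPG KO the same 3 genes gave -0.36 (Nol6, adjusted p = 0.0900), -0.33 (Rrp15, adjusted p = 0.135) and -0.19 (Polr1a, adjusted p = 0.395).

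Of the 57 genes, 13 overlap a measured gene on the opposite strand, among them Nhp2, Nop56, Dkc1, Wdr12, Bop1, Pes1, Tsr1 and Nol7. The libraries were directional, but the strand setting of the counting is not given in the sources used here, so the values of these 13 may include reads of the neighbour. CPM is not corrected for transcript length, so levels were compared between groups and not between genes.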

How the data were processed

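PolyA RNA of 18 libraries was measured as gene counts. Per the submitters' processing notes, FastQC, MultiQC, Trimmomatic, STAR and HTSeq were used with the mouse build GRCm39, and edgeR was applied; no version, strand setting or annotation release is given in the sources used. Per the file headers, values are raw counts by gene as the authors deposited them, for 14695 genes. Of 449 blank symbols, 431 were filled by identifier from a GRCm38 annotation.

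All 18 libraries entered 1 fit with a term per group in edgeR 4.0.16 (R 4.3.3): TMM factors, robust quasi-likelihood F test, Benjamini-Hochberg adjustment over all genes, calls at an adjusted p under 0.05. A fold change is log2, ± beside it is the standard error, and ± beside a CPM is the SD over 3 libraries. The 10 comparisons and the gene lists followed fixed rules: Myc and the 2 members of each role with the highest mean CPM are named, with the 3 largest changes in each direction per comparison. For Myc network genes outside the rule, all past the threshold in Rosa26 are named. Members and lists were chosen with earlier results of these data known, so no pattern here is independent support for them. Other genes were named after their values were seen. A self-test on simulated counts with known changes was run first.

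Alternatives were RLE and upper-quartile scaling, a filter at 5 CPM in 3 libraries (10216 genes), filterByExpr, DESeq2 1.42.0, only the compared groups, the replicate number as a block, each library left out, and the 3 libraries low in Malat1 left out. Promoter sequences are from RefSeq windows on GRCm38.p6, and no coordinate was moved between builds. Totals of 14.2 to 20.3 M counts per library put at least 269 counts behind each value of the 57 genes.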

Additional observations from a re-analysis of the deposited data

Results flagged for a closer look

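The change with halofuginone differed between genotypes, by the interaction test, for 4 of the 57 genes in ATF4 KO against Rosa26. The difference was -0.42 for Utp20, -0.41 for Nol6, -0.39 for Rrp15 and -0.36 for Polr1a on the log2 scale, each a further fall in the knockout. In CEBPG KO against Rosa26 it was -0.46 for Utp20. Over all genes 4.01% and 2.1% fell further in the 2 knockouts, and Utp20 in ATF4 KO was the only 1 of these 5 results whose call was lost under none of the alternatives run.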

How the results depend on the processing

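With filterByExpr every result was the same, since it kept all genes. For the 3 halofuginone comparisons, the counts of fallen genes held under all alternatives within 1.5 times. Upper-quartile scaling moved the median of all genes by up to 0.11 (halofuginone in CEBPG KO, from -0.03 to 0.08), and the 57 genes stayed 0.46 to 0.47 below it there: their median minus that of all genes was -0.46 with TMM and -0.47 with upper-quartile scaling. At least 269 counts lay behind each value of the 57 genes, and the part of depth in the counts of calls was not tested. The causes of the moves below were not tested.

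Counts of higher genes moved to 2 in Rosa26 with halofuginone (upper-quartile scaling, 5 CPM filter). The count moved to 2 in ATF4 KO (RLE, upper-quartile, 5 CPM filter, DESeq2) and to 4 in CEBPG KO (upper-quartile). The CEBPG KO median moved to -0.39 (upper-quartile) and -0.41 (5 CPM filter). Over all genes, 49.4% of 7008 calls in Rosa26 were higher as reported, 56.3% of 7249 (upper-quartile) and 52.4% of 6547 (5 CPM filter). In ATF4 KO the share of calls that were higher was 46.6% as reported and 50.5% to 52.0% in the 4 settings named. In CEBPG KO it was 45.2% as reported and 55.1% with upper-quartile scaling. Untreated ATF4 KO had 1 higher with only the compared groups. Untreated CEBPG KO, 3 lower as reported, had 17 (RLE), 6 (upper-quartile), 11 (5 CPM filter) and 25 (DESeq2) lower. It had 35 lower (compared groups) and 32 lower (without the libraries low in Malat1), with 1 higher in each of these 2 settings. Over all genes untreated CEBPG KO gave 735 calls as reported, of which 54.1% were higher. It gave 1008 with upper-quartile scaling (57.1% higher) and 1308 of 10216 genes with the 5 CPM filter (44.7%). Under halofuginone, ATF4 KO had 2 higher (upper-quartile, 5 CPM filter), 1 higher (without the libraries low in Malat1) and 20 lower (compared groups). Over all genes, 41.9% of 4128 calls there were higher as reported, 52.2% of 4543 (upper-quartile) and 47.7% of 4526 (5 CPM filter). Treated CEBPG KO had a median of -0.18 (upper-quartile) and 13 lower (compared groups). Its median of all genes moved from -0.016 to 0.072 with upper-quartile scaling. The median of the 57 minus that of all genes was -0.255 with TMM and -0.254 with upper-quartile scaling. CEBPG KO against ATF4 KO gave 2 higher (upper-quartile, DESeq2), 3 higher (5 CPM filter), and 1 higher and 1 lower (without the libraries low in Malat1). The ATF4 KO interaction had 8 (upper-quartile), 9 (5 CPM filter), 2 (compared groups) and 13 (without the libraries low in Malat1, with 1 higher) lower, and the CEBPG KO interaction 2 (5 CPM filter) and 4 (without the libraries low in Malat1). Over all genes the ATF4 KO interaction gave 943 calls as reported, of which 37.5% were higher. It gave 1237 with upper-quartile scaling (39.9% higher), 1378 of 10216 genes with the 5 CPM filter (42.2%) and 617 with the compared groups (36.5%). For the CEBPG KO interaction the 5 CPM filter gave 539 calls of 10216 genes (34.0% higher).

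Myc reversed only where it was far from the threshold: in ATF4 KO with halofuginone, 0.016 (RLE, DESeq2), 0.018 (5 CPM filter) and 0.031 (upper-quartile); in CEBPG KO, -0.012 (without the libraries low in Malat1); and in the CEBPG KO interaction, 0.048 (RLE, DESeq2), 0.023 (upper-quartile), 0.021 (5 CPM filter) and 0.062 (compared groups). Of 1372 values of named genes under alternatives, 1238 kept direction and side of the threshold, 103 lost a call, 10 gained one and 21 reversed, all 21 of Myc.

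Leaving out 1 library at a time, the counts of higher genes ran from 1 to 2 (halofuginone in ATF4 KO and in CEBPG KO), 0 to 1 (ATF4 KO against Rosa26 and CEBPG KO against ATF4 KO under the drug, CEBPG KO interaction) and 0 to 3 (ATF4 KO interaction). The counts of lower genes ran from 15 to 22 (untreated ATF4 KO), 0 to 0 (untreated CEBPG KO), 25 to 44 and 15 to 35 (treated ATF4 KO and CEBPG KO), and 1 to 9 and 0 to 2 (the interactions with ATF4 KO and CEBPG KO). Shares of all genes were not counted for these fits. Medians ran from -0.32 to -0.19 (treated CEBPG KO against Rosa26), -0.018 to 0.13 (CEBPG KO against ATF4 KO), -0.11 to 0.022 (ATF4 KO interaction) and -0.14 to 0.024 (CEBPG KO interaction), the interaction medians above 0 only without treated Rosa26 replicate 2 or, in CEBPG KO, treated CEBPG KO replicate 2. Myc ran with halofuginone from -0.031 to 0.074 (Rosa26), -0.049 to 0.026 (ATF4 KO) and -0.047 to 0.096 (CEBPG KO), and from -0.10 to 0.022 and -0.090 to 0.092 in the interactions.

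Replicate numbers showed no common pairing by correlation of deviations from group means. Over 45 same-numbered pairs it ran from -0.69 to 0.53 with a median of -0.0052, and 6 of 18 libraries matched their own number best. The treated libraries low in Malat1 went together across numbers, at 0.76 for Rosa26 replicate 2 and ATF4 KO replicate 3. These correlations therefore cannot show whether libraries of 1 number shared a culture or an animal. With the replicate block the fallen genes were 44, 42 and 46 in the 3 halofuginone comparisons, and 24 and 1 in the untreated knockouts. They were 38 and 27 in the treated knockouts, 0 between the knockouts, and 2 and 1 in the interactions. Shares of all genes with the block are not given here. Changes of these counts therefore cannot be read as particular to these genes.

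The share of calls that were higher over all genes moved by over 10 points with scaling in 6 comparisons: from 54.1% to 26.2% (untreated CEBPG KO, RLE), 44.9% to 57.6% (untreated ATF4 KO, upper-quartile), 41.9% to 52.2% (treated ATF4 KO, upper-quartile), 30.4% to 50.7% (treated CEBPG KO, upper-quartile), 37.5% to 59.0% (ATF4 KO interaction, RLE) and 15.2% to 40.7% (CEBPG KO interaction, RLE).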
